A study of Mus musculus with 12 samples.

Results

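Phototransduction is the conversion of light into an electrical signal in the outer segments of rods and cones, and 40 mouse genes that serve it were followed here through oxygen-induced retinopathy (OIR). They were chosen by symbol, as genes of the opsins, transducins, phosphodiesterases, cation channels, guanylate cyclase system, shutoff proteins, outer segment structure and photoreceptor identity factors, and all 40 were found among the 35976 rows of the count table. Of them 12 are used by rods (Gnat1, Gnb1, Gngt1, Pde6a, Pde6b, Pde6g, Cnga1, Cngb1, Sag, Slc24a1, Nrl and Nr2e3), 11 by cones (Opn1sw, Opn1mw, Gnat2, Gnb3, Gngt2, Pde6c, Pde6h, Cnga3, Cngb3, Arr3 and Thrb), and 17 were treated as shared. These names are those of the cells that use the genes most. Gnb1 and Gnb5 also serve many other neurons, and Gnb3 also serves bipolar cells.

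The study sequenced the 3′ ends of polyadenylated RNA from whole mouse retina in 12 libraries, 3 in each of 4 groups. C57BL/6 mice labelled WT were kept in room air (normoxia) or put through OIR, in which pups breathed 75% oxygen from postnatal day 7 to 12 and then 3 days of room air, so that retinas were taken at postnatal day 15. Mice labelled Casp1 KO, a knockout of the inflammatory protease caspase-1, were likewise kept in normoxia or put through OIR with 3 days of relative hypoxia. Their age, the oxygen level they were exposed to, the deleted part of Casp1 and the number of animals in a library are not given in the sources used here.

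In the dark, cyclic GMP holds the cation channel of the outer segment open and calcium enters. A photon activates an opsin, the opsin activates transducin, transducin releases phosphodiesterase from inhibition, and the fall in cyclic GMP closes the channel. Kinase, arrestin and a GTPase-accelerating complex end the response, while calcium sensors switch guanylate cyclase back on. In the mouse retina, which holds many more rods than cones, the factors Crx, Nrl and Nr2e3 set up the rod programme and the thyroid hormone receptor Thrb is needed for the medium-wavelength cone opsin.

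Total counts ran from 3391203 to 22815830 a library. The highest total was that of the second WT normoxia library alone, and the next highest was 5657873. The 40 genes took 6.96% to 7.64% of a library's counts. Each of the 40 had at least 10 counts in every library, the lowest being 43 counts, so none was near the limit of 3 counts that a count of 0 allows. Reads of Casp1 itself went against the labels, with 126 in all in the 6 Casp1 KO libraries and 7 in the 6 WT libraries. Since 3′ reads can lie outside a deletion, a knockout can keep such reads, but this says nothing on why the WT libraries held fewer. Whether labels were exchanged was not tested. An exchange would turn the sign of every difference between the genotypes and of the interaction. Genotypes are therefore given as labels throughout. The third WT OIR library stood apart from the other 2 of its group, since its counts differed from theirs with a chi-square of 15.2 and 14.2 a degree of freedom where those 2 gave 5.41 against each other. Several of the results that rest on it, but not all, are given with and without it. Nothing says whether the 3 libraries of a group came from separate animals, so p-values cannot be taken to measure the spread between animals. Nor do they rest only on each gene's own spread between libraries. In the main fits, a gene with widely varying libraries could have nearly the standard error of a steady one, as shown for Gngt1 below. Small p-values of genes that vary widely within a group are therefore to be read with caution.

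Rod and cone promoters are known as targets of Crx, and rod promoters also of Nrl. The promoters of 4 members are shown because they differ in the letters of these factors' core motifs. Each is the stretch of 250 bases before the RefSeq start site on GRCm38.p6, read on the gene's own strand, with matches in capitals to TAATCC or GGATTA (the core of Crx motifs on either strand) and to TGCTGA or TCAGCA (a core of Nrl motifs). Guca1a (chr17:47400607-47400856, minus strand) and Gucy2f (chrX:142196937-142197186, minus strand) encode a calcium sensor and a guanylate cyclase whose OIR responses differed between the genotypes. Sag (chr1:87803430-87803679, plus strand) and Arr3 (chrX:100605247-100605496, plus strand) encode the rod and the cone arrestin.
Guca1a: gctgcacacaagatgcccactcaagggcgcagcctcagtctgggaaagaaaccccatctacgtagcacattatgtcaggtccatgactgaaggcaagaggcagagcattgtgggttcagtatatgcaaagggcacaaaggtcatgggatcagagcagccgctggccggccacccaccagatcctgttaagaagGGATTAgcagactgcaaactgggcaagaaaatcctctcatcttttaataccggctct
Gucy2f: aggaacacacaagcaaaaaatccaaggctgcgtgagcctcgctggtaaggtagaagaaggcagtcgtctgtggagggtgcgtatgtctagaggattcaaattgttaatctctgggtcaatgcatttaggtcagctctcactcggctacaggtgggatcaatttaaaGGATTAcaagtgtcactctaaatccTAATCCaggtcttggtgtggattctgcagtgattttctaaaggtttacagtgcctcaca
Sag: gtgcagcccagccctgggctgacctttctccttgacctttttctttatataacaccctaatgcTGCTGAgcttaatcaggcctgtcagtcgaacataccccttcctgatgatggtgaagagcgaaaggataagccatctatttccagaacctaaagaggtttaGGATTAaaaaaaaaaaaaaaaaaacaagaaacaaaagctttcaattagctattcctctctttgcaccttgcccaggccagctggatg
Arr3: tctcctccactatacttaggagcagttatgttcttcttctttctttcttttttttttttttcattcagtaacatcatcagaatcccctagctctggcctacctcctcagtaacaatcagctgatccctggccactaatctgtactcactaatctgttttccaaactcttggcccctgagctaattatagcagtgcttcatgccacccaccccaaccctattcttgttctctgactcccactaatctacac
Guca1a held 1 Crx core, Gucy2f held 2, Sag held 1 of each kind, and Arr3 held neither. Windows were found for 29 of the 40 genes, and the Crx core was in 13 of these against 6.25% of all 32851 windows of this length. The Nrl core was in 6 of the 29 against 16.1% of all windows, and both were in 2 of the 29, Sag and Rpgrip1, against 0.962%. The start site used lay 30691 bases from the annotated gene start for Pde6h, 10580 for Nr2e3, 7955 for Opn1sw, 3844 for Cnga3 and 1523 for Cnga1. It lay closer for the others. Windows so far off may not be the promoter in use, and Cnga1 is counted with the Crx core and Opn1sw with the Nrl core. All matches are of letters, given as a description without a test.

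In the libraries labelled WT, OIR raised 4 of the 40 genes and lowered 4, with 1.58% of all 22853 genes tested called higher and 2.29% called lower (edgeR quasi-likelihood test, adjusted p under 0.05 over all genes). Those that rose were Nr2e3, Crx, Rcvrn and Rpgrip1, and those that fell were Guca1a, Guca1b, Arr3 and Gngt1. In the libraries labelled Casp1 KO, OIR raised 12 and lowered 5, with 2.61% of all 22387 genes called higher and 2.03% lower. With all 12 libraries in 1 fit, which share 1 estimate of the spread, 7 of the 40 were called higher and 4 lower in WT, and 3 higher (Nrl, Opn1sw and Rgs9) and 4 lower (Arr3, Gucy2f, Rpgrip1 and Sag) in Casp1 KO, so neither the larger count in Casp1 KO nor its excess of higher genes held there. Since each of the 40 had at least 10 counts in every library, the share among genes that did is a closer background. There 1.93% were higher and 3.24% lower in WT, with 3 and 3 of the 40, and 4.69% were higher and 4.69% lower in Casp1 KO, with 11 and 5 of the 40. The changes were small, with fitted log2 fold changes of the 40 from -0.83 to 0.52 in WT and from -0.68 to 0.49 in Casp1 KO. The median was 0.039 in WT, beside 0.037 over all genes tested, and 0.13 in Casp1 KO, beside -0.0020 over all genes.

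By class, 1 rod gene rose and 1 fell among 12 in WT, no cone gene rose and 1 fell among 11, and 3 shared genes rose and 2 fell among 17. In Casp1 KO the counts were 3 higher and 1 lower for rod genes, 3 higher and 1 lower for cone genes, and 6 higher and 3 lower for shared genes. Rcvrn, Nr2e3 and Crx were called higher in both genotypes, Crx with calls that most alternative fits lost, and Arr3 fell in both, Rpgrip1 moved in opposite directions, and 20 of the 40 were called in neither. Without the third WT OIR library, 14 of the 40 were called in WT, 6 higher and 8 lower: Gnb3, Pde6a and Rp1 joined those higher, Pdc, Prph2, Rom1 and Sag joined those lower, and Crx was no longer called.

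**Figure D1:**
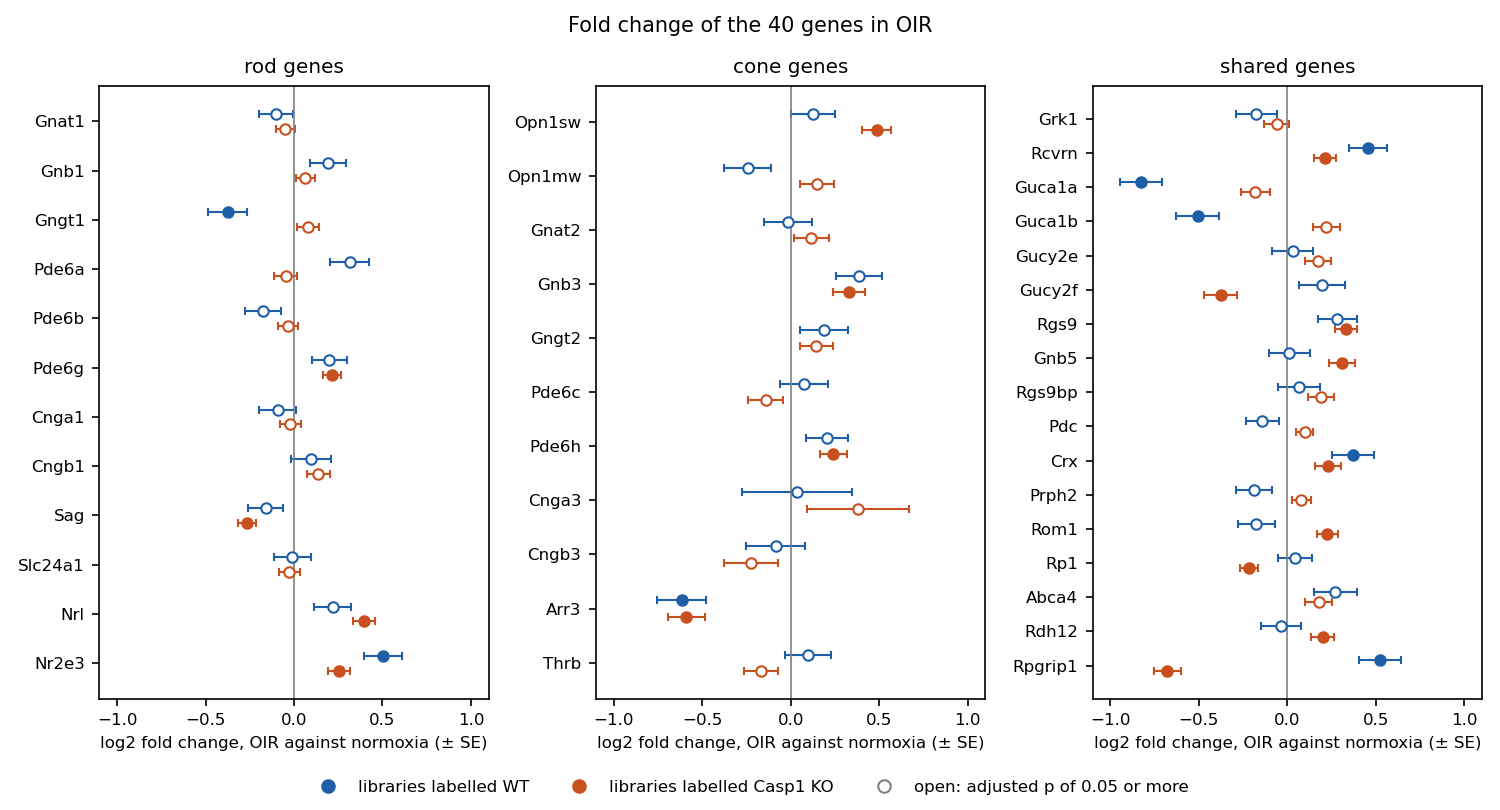
Log2 fold change (horizontal axis, ± SE) in OIR against normoxia of each of the 40 genes, by class, for the WT (blue) and Casp1 KO (orange) labels, with filled points at an adjusted p under 0.05. Most points lie within 0.4 of 0, Arr3 is low in both genotypes, and Guca1a, Guca1b, Gucy2f and Rpgrip1 stand on different sides or far apart.

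The guanylate cyclase system held 3 of the 4 genes whose response to OIR differed between the genotypes. It holds the cyclases Gucy2e and Gucy2f, which make cyclic GMP in the outer segment, and their calcium sensors Guca1a and Guca1b, which switch them on when calcium falls. Of the 4, Guca1a and Guca1b fell with OIR in WT, Gucy2f fell in Casp1 KO, and Gucy2e was called in neither.

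Guca1a stood at 691, 709 and 695 CPM (reads as a share of the library, scaled by TMM) in the WT normoxia libraries and at 366, 312 and 512 in WT OIR. It stood at 402, 381 and 428 in Casp1 KO normoxia and at 376, 339.9 and 342 in Casp1 KO OIR. Thus all 3 WT normoxia libraries were above the 9 others, and the Casp1 KO groups did not overlap each other by a narrow margin. The log2 fold change with OIR was -0.83 ± 0.12 (SE, adjusted p = 3.01e-09) in WT and -0.18 ± 0.082 (adjusted p = 0.255) in Casp1 KO. The difference between these responses, the interaction of OIR and genotype, was 0.62 ± 0.15 with an adjusted p of 0.00472. Without the third WT OIR library, the highest of its group, the values were -1.05 ± 0.095 in WT and 0.85 ± 0.12 for the interaction, which was not called without the second (adjusted p = 0.122). In normoxia itself, Guca1a was lower in Casp1 KO than in WT (log2 fold change -0.79 ± 0.074, adjusted p = 9.67e-23). This comparison and the WT response to OIR share the WT normoxia libraries.

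Guca1b stood at 709, 683 and 712 CPM in WT normoxia and at 499, 517 and 475 in WT OIR, so the OIR libraries were all lower. In Casp1 KO it stood at 559, 603 and 532 in normoxia and 634, 681 and 641 in OIR, where the OIR libraries were all higher. The fold change was -0.51 ± 0.12 in WT (adjusted p = 0.00134) and 0.22 ± 0.075 in Casp1 KO, which missed the threshold (adjusted p = 0.0622). The interaction was 0.70 ± 0.14 (adjusted p = 0.000262). In normoxia Guca1b was also lower in Casp1 KO than in WT (-0.31 ± 0.071, adjusted p = 0.00334). Guca1b (chr17:47385393-47392967, plus strand) and Guca1a (chr17:47394558-47400584, minus strand) lie beside each other with their 3′ ends facing, and no annotated exon of either overlaps the other.

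Gucy2f, the other cyclase of the outer segment, stood at 233, 206 and 209.8 CPM in WT normoxia, 256, 239 and 254 in WT OIR, 232, 213 and 263 in Casp1 KO normoxia and 192, 159.6 and 188 in Casp1 KO OIR. The Casp1 KO OIR libraries were the 3 lowest of the 12. The fold change was -0.38 ± 0.094 in Casp1 KO (adjusted p = 0.00311) and 0.20 ± 0.13 in WT (adjusted p = 0.544). The interaction was -0.60 ± 0.16 (adjusted p = 0.0288) and was lost in 7 of 18 alternative fits, among them those without the third Casp1 KO normoxia library (adjusted p = 0.208). Gucy2e stayed between 573 and 730.4 CPM in all libraries, with fold changes of 0.029 ± 0.12 in WT (adjusted p = 0.942) and 0.17 ± 0.074 in Casp1 KO (adjusted p = 0.221). Reads of Gucy2f per read of Gucy2e were 0.354, 0.371 and 0.431 in Casp1 KO normoxia and 0.263, 0.237 and 0.291 in Casp1 KO OIR, while they were 0.358, 0.316 and 0.337 in WT normoxia and 0.381, 0.402 and 0.356 in WT OIR.

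**Figure D2:**
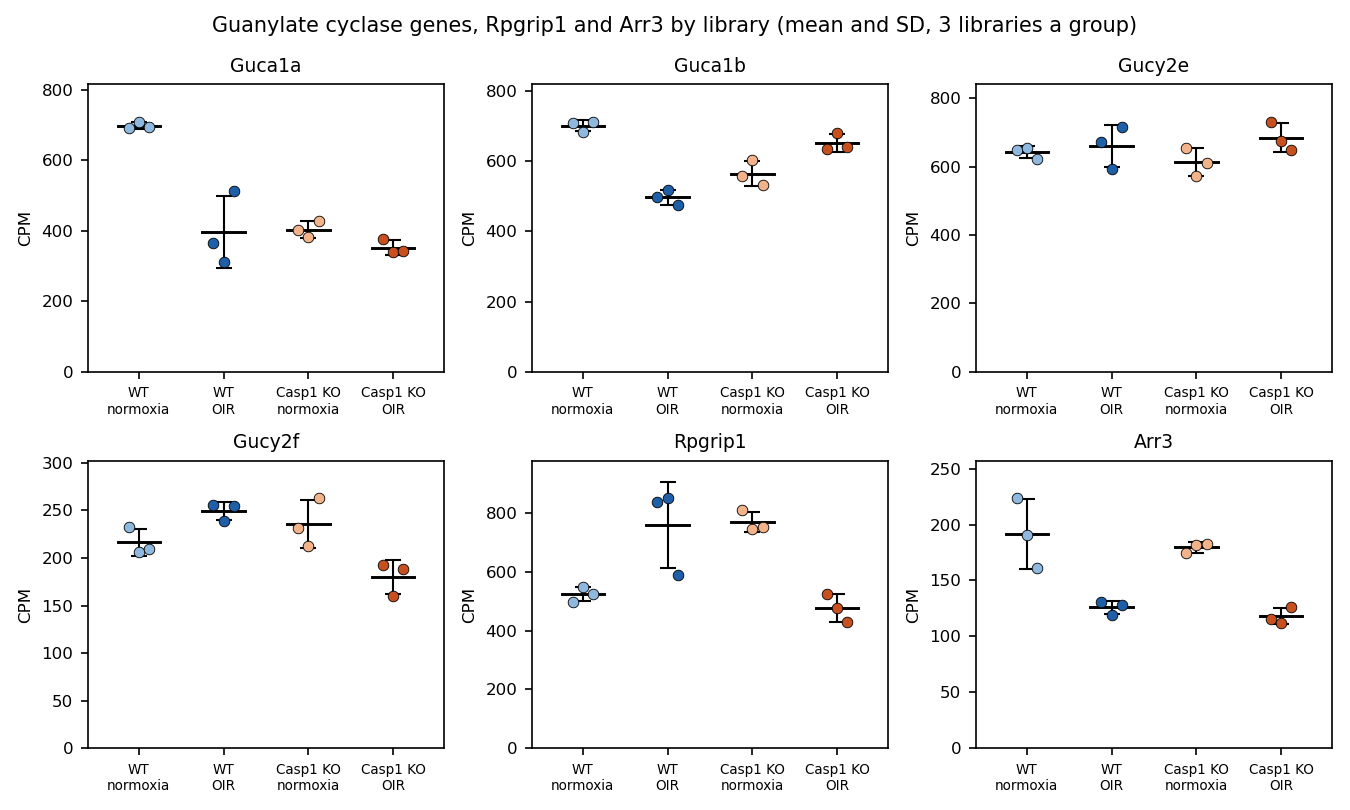
Level in CPM (vertical axis, from 0) of 6 genes in each of the 12 libraries (points), by group, with bars for the mean and SD of 3 libraries. Guca1a is highest in the 3 WT normoxia libraries, Rpgrip1 is higher in WT OIR than in WT normoxia and lower in Casp1 KO OIR than in Casp1 KO normoxia, and Arr3 is lower in OIR in both genotypes.

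Among the 6 genes of outer segment structure, cilium and retinoid handling, Rpgrip1 turned its direction between genotypes. Its product binds the RPGR protein at the connecting cilium, through which outer segment proteins pass. Rpgrip1 (chr14:52110704-52163546, plus strand) stood at 498, 546 and 523 CPM in WT normoxia and at 837, 848 and 588 in WT OIR. It stood at 809, 744 and 753 in Casp1 KO normoxia and at 524, 477 and 428 in Casp1 KO OIR. The groups did not overlap in either genotype, and the third WT OIR library was the closest of its group to normoxia. The fold change was 0.52 ± 0.12 in WT (adjusted p = 0.000697) and -0.68 ± 0.075 in Casp1 KO (adjusted p = 7.52e-17), with an interaction of -1.23 ± 0.14 (adjusted p = 1.36e-14). Leaving out that library gave 0.68 ± 0.087 in WT and an interaction of -1.38 ± 0.11. Between genotypes, Rpgrip1 was higher in Casp1 KO in normoxia (0.56 ± 0.071, adjusted p = 4.29e-12) and lower in Casp1 KO in OIR (-0.67 ± 0.12, adjusted p = 2.59e-05). The last call was lost with filterByExpr (adjusted p = 0.0968) and with a minimum of 10 counts in every library (adjusted p = 0.0719).

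Exons of Rpgrip1 overlap those of Supt16 on the opposite strand, and since the strand setting of the counting is not given in the sources used here, reads of the pair could not be told apart. Supt16, a chromatin factor, stood at 134 to 156 CPM in WT normoxia, 128 to 174 in WT OIR, 125 to 139.8 in Casp1 KO normoxia and 108 to 133 in Casp1 KO OIR, ranges that overlap within each genotype. The part of Supt16 in the Rpgrip1 result was not tested. Exons of Pde6h, Gngt2 and Gnb5 overlap Arhgdib, Abi3 and Gm19531 on the opposite strand, and their counts are uncertain in the same way.

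Rp1, which binds the microtubules of the outer segment axoneme, stood at 6576, 5994 and 5986 CPM in Casp1 KO normoxia and 5469, 4886 and 5462 in Casp1 KO OIR, all OIR libraries being lower (log2 fold change -0.22 ± 0.051, adjusted p = 0.00133). In WT it stood at 6612, 6627 and 6799 in normoxia and 8161, 7032 and 5611 in OIR, and the OIR libraries lay on both sides of normoxia (0.043 ± 0.097, adjusted p = 0.883). Rom1, a tetraspanin of the disc rim, rose in Casp1 KO from 2481 ± 169.7 to 2876 ± 197 CPM (mean ± SD, n = 3; 0.23 ± 0.058, adjusted p = 0.00414), a call lost in 3 of 13 alternative fits, while its partner Prph2 had values of 0.08 ± 0.054 in Casp1 KO (adjusted p = 0.549) and -0.19 ± 0.10 in WT (adjusted p = 0.444). The retinoid genes Abca4, a transporter of the disc rim, and Rdh12, an inner segment retinol dehydrogenase, gave 0.18 ± 0.076 (adjusted p = 0.225) and 0.20 ± 0.065 (adjusted p = 0.0453) in Casp1 KO. The call of Rdh12 was lost in 11 of 13 alternative fits.

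Of the 8 shutoff genes, cone arrestin Arr3 fell in both genotypes. Arr3 binds phosphorylated cone opsin and ends its activity. It stood at 223, 190.3 and 161 CPM in WT normoxia and 131, 119 and 128 in WT OIR, and at 174, 182 and 183 in Casp1 KO normoxia and 116, 112 and 126 in Casp1 KO OIR. All 6 OIR libraries lay below all 6 normoxia libraries. The log2 fold change was -0.62 ± 0.14 in WT (adjusted p = 0.000664), -0.59 ± 0.11 in Casp1 KO (adjusted p = 2.65e-06) and -0.60 ± 0.094 over both genotypes (adjusted p = 2e-08). The WT call was lost without the first WT normoxia library, which held the highest value (adjusted p = 0.082). The interaction was 0.0021 ± 0.17, a difference smaller than its standard error. Reads of Arr3 per read of Gnat2, the cone transducin, were 1.21, 1.11 and 0.942 in WT normoxia and 0.737, 0.681 and 0.742 in WT OIR, and 0.983, 1.18 and 0.982 in Casp1 KO normoxia and 0.633, 0.533 and 0.775 in Casp1 KO OIR. This ratio too was below normoxia in all 6 OIR libraries, and it does not depend on how libraries are scaled. Reads of Arr3 per read of rod arrestin Sag were 0.0324, 0.021 and 0.0204 in WT normoxia and 0.0205, 0.0185 and 0.0147 in WT OIR, which overlap. In Casp1 KO they were 0.0222, 0.0233 and 0.0224 in normoxia and 0.0171, 0.0168 and 0.0207 in OIR, which do not. Both ratios hold the reads of Arr3 itself and are given without a test.

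Rod arrestin Sag, which binds the phosphorylated rod pigment, stood at 7837, 7776 and 8139.6 CPM in Casp1 KO normoxia and 6776, 6704 and 6114 in Casp1 KO OIR, and fell there (-0.26 ± 0.05, adjusted p = 1.06e-05). In WT it stood at 6901, 9081 and 7927 in normoxia and 6392, 6441 and 8715 in OIR, and the groups overlapped (-0.16 ± 0.096, adjusted p = 0.501). When the third WT OIR library was left out the WT value was -0.32 ± 0.056 (adjusted p = 1.36e-06).

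Recoverin (Rcvrn), the calcium sensor that restrains the opsin kinase, stood at 1707, 1688 and 1642 CPM in WT normoxia, 2154, 1943 and 2856 in WT OIR, 2158, 1874 and 2025 in Casp1 KO normoxia and 2300.3, 2448 and 2204 in Casp1 KO OIR. OIR libraries were above normoxia in each genotype, with the third WT OIR library the highest of all 12. The fold change was 0.45 ± 0.11 in WT (adjusted p = 0.00149) and 0.21 ± 0.06 in Casp1 KO (adjusted p = 0.0132), and 0.28 ± 0.072 in WT without that library (adjusted p = 0.00475). The call was lost in 1 of 13 alternative fits in WT and in 4 of 13 in Casp1 KO. The kinase Grk1 itself was called in neither genotype, with -0.18 ± 0.11 in WT (adjusted p = 0.542) and -0.061 ± 0.071 in Casp1 KO (adjusted p = 0.725).

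The complex that speeds GTP hydrolysis by transducin consists of Rgs9, Gnb5 and the anchor Rgs9bp. In Casp1 KO, Rgs9 rose from 1439 ± 51.1 to 1796 ± 60.7 CPM (0.33 ± 0.063, adjusted p = 1.23e-05) and Gnb5 from 556 ± 7.96 to 682 ± 43.6 (0.31 ± 0.075, adjusted p = 0.00188), while Rgs9bp gave 0.19 ± 0.074 (adjusted p = 0.14). In WT the values were 0.28 ± 0.11 for Rgs9 (adjusted p = 0.15), 0.012 ± 0.12 for Gnb5 and 0.067 ± 0.12 for Rgs9bp, with none called. No interaction passed for any of the 3 (smallest adjusted p 0.515, for Gnb5). Phosducin (Pdc), which binds transducin's beta and gamma subunits, was called in neither genotype, with -0.14 ± 0.095 in WT and 0.098 ± 0.048 in Casp1 KO.

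Few of the transducin, phosphodiesterase and channel genes were called. Of 16 in all, none rose and 1 fell in WT, and 3 rose and none fell in Casp1 KO. Rod transducin alpha Gnat1 stood at 6328, 6412 and 6510.2 CPM in WT normoxia, 6916, 5404 and 5762 in WT OIR, 6196, 5413 and 5634 in Casp1 KO normoxia and 5803, 5211 and 5515 in Casp1 KO OIR, with overlapping groups in both genotypes. Its fold change was -0.10 ± 0.098 in WT (adjusted p = 0.669) and -0.048 ± 0.052 in Casp1 KO (adjusted p = 0.705). The rod phosphodiesterase subunit Pde6b gave -0.17 ± 0.10 (adjusted p = 0.5) and -0.031 ± 0.056 (adjusted p = 0.823), and the rod channel subunit Cnga1 gave -0.093 ± 0.11 (adjusted p = 0.722) and -0.02 ± 0.06 (adjusted p = 0.91). For these 3 rod genes the interaction ran from 0.029 to 0.12 with standard errors of 0.11 to 0.12, and none was called.

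The cone counterparts were likewise not called in either genotype. Gnat2 stood at 184, 171 and 171 CPM in WT normoxia, 178, 175 and 172 in WT OIR, 177, 154 and 186 in Casp1 KO normoxia and 183, 211 and 163 in Casp1 KO OIR. Its fold change was -0.014 ± 0.14 in WT (adjusted p = 0.977) and 0.12 ± 0.098 in Casp1 KO (adjusted p = 0.615). The cone phosphodiesterase Pde6c gave 0.075 ± 0.14 (adjusted p = 0.845) and -0.14 ± 0.10 (adjusted p = 0.56), and the cone channel subunits Cnga3 and Cngb3, the 2 genes with the fewest reads, were called in no comparison. The rod channel and exchanger genes Cngb1 and Slc24a1 gave 0.096 ± 0.11 and -0.0086 ± 0.11 in WT and 0.14 ± 0.066 and -0.026 ± 0.059 in Casp1 KO, and the cone transducin gamma subunit Gngt2 gave 0.19 ± 0.13 and 0.15 ± 0.094, with none called. Cnga3 ran from 7.92 to 21.4 CPM over the 12 libraries with a standard error of 0.29 to 0.31. Its lack of a call therefore does not show that it was unchanged.

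3 genes of this group rose in Casp1 KO. Pde6g, the inhibitory subunit of the rod enzyme, rose from 4923 ± 113 to 5655 ± 245 CPM (0.21 ± 0.052, adjusted p = 0.00215). Its cone counterpart Pde6h rose from 451 ± 25.9 to 528 ± 25.3 (0.24 ± 0.078, adjusted p = 0.0436), a call lost in 8 of 13 alternative fits. Gnb3, the cone transducin beta subunit, stood at 261, 242 and 229.7 in Casp1 KO normoxia and 304, 346 and 264 in OIR (0.33 ± 0.088, adjusted p = 0.0072), a call lost in 3 of 13 with an adjusted p of 0.24 without the second Casp1 KO OIR library, and its value in WT was 0.39 ± 0.13 (adjusted p = 0.0635). Over both genotypes Gnb3 rose by 0.36 ± 0.086 (adjusted p = 0.00143) and Pde6g by 0.20 ± 0.062 (adjusted p = 0.0254), the latter a call lost in 5 of 18 alternative fits. The 10 bipolar cell markers, cells that also use Gnb3, held 0 higher and 2 lower in WT and 0 of either in Casp1 KO. Over all genes tested, 1.58% were higher and 2.29% lower in WT, and 2.61% higher and 2.03% lower in Casp1 KO. The part of bipolar cells in the Gnb3 result was not tested.

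Gngt1, the rod transducin gamma subunit, varied widely between libraries of a group. It stood at 1915, 963 and 1544 CPM in WT normoxia, 813, 946 and 1672 in WT OIR, 1265, 1809 and 1593 in Casp1 KO normoxia and 1318, 1263 and 2310.3 in Casp1 KO OIR, and the groups overlapped in both genotypes. The fall in WT (-0.38 ± 0.11, adjusted p = 0.0234) was lost in 7 of 13 alternative fits, with an adjusted p of 0.809 in DESeq2. Its standard error of 0.11 was close to the 0.098 of Gnat1 in the same test. Yet the SD in WT normoxia was 480 CPM for Gngt1 (mean 1474) and 91.4 for Gnat1 (mean 6417). With a minimum of 10 counts in every library, edgeR gave Gngt1 a standard error of 0.22 in WT (unadjusted p = 0.131). The call of Gngt1 as higher in Casp1 KO than in WT in OIR (0.51 ± 0.11, adjusted p = 0.00238) was lost in 6 of 13. Without the third WT OIR library the values were -0.75 ± 0.08 in WT (adjusted p = 3.26e-18) and 0.90 ± 0.086 between the genotypes in OIR (adjusted p = 3.23e-22).

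The short-wavelength cone opsin Opn1sw stood at 317, 326 and 345 CPM in WT normoxia, 349, 339 and 397 in WT OIR, 317, 286 and 335 in Casp1 KO normoxia and 476, 427 and 400.2 in Casp1 KO OIR. In Casp1 KO the OIR libraries were all above normoxia, with a fold change of 0.49 ± 0.082 (adjusted p = 4.4e-07), whereas the WT groups overlapped (0.13 ± 0.12, adjusted p = 0.669). The difference between these responses was 0.34 ± 0.15 and was not called (adjusted p = 0.405). The medium-wavelength opsin Opn1mw stood at 199.99, 211 and 204 CPM in WT normoxia, 179, 157 and 189 in WT OIR, 181, 193 and 202 in Casp1 KO normoxia and 217, 227 and 187 in Casp1 KO OIR. It was lower in all WT OIR libraries than in WT normoxia without passing the test (-0.24 ± 0.13, adjusted p = 0.453), and gave 0.15 ± 0.095 in Casp1 KO (adjusted p = 0.523).

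Set against each other within a library, the opsins separated the conditions in both genotypes. Reads of Opn1sw per read of Opn1mw were 1.58, 1.55 and 1.69 in WT normoxia and 1.95, 2.17 and 2.1 in WT OIR. They were 1.76, 1.48 and 1.66 in Casp1 KO normoxia and 2.19, 1.88 and 2.14 in Casp1 KO OIR. All 6 OIR libraries were above all 6 normoxia libraries, with means of 1.61 ± 0.0718 (SD, n = 3) and 2.07 ± 0.108 in WT and 1.63 ± 0.14 and 2.07 ± 0.167 in Casp1 KO. This ratio was chosen after its values were seen and is given without a test. Exons of Opn1sw overlap those of Calu on the opposite strand. Calu, which encodes a calcium-binding protein of the secretory pathway, stood at 52.4 to 68.6 CPM in WT normoxia, 73.7 to 108 in WT OIR, 62.7 to 68.3 in Casp1 KO normoxia and 77.8 to 85.8 in Casp1 KO OIR, higher in OIR in both genotypes, and its part in the Opn1sw values was not tested.

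**Figure D3:**
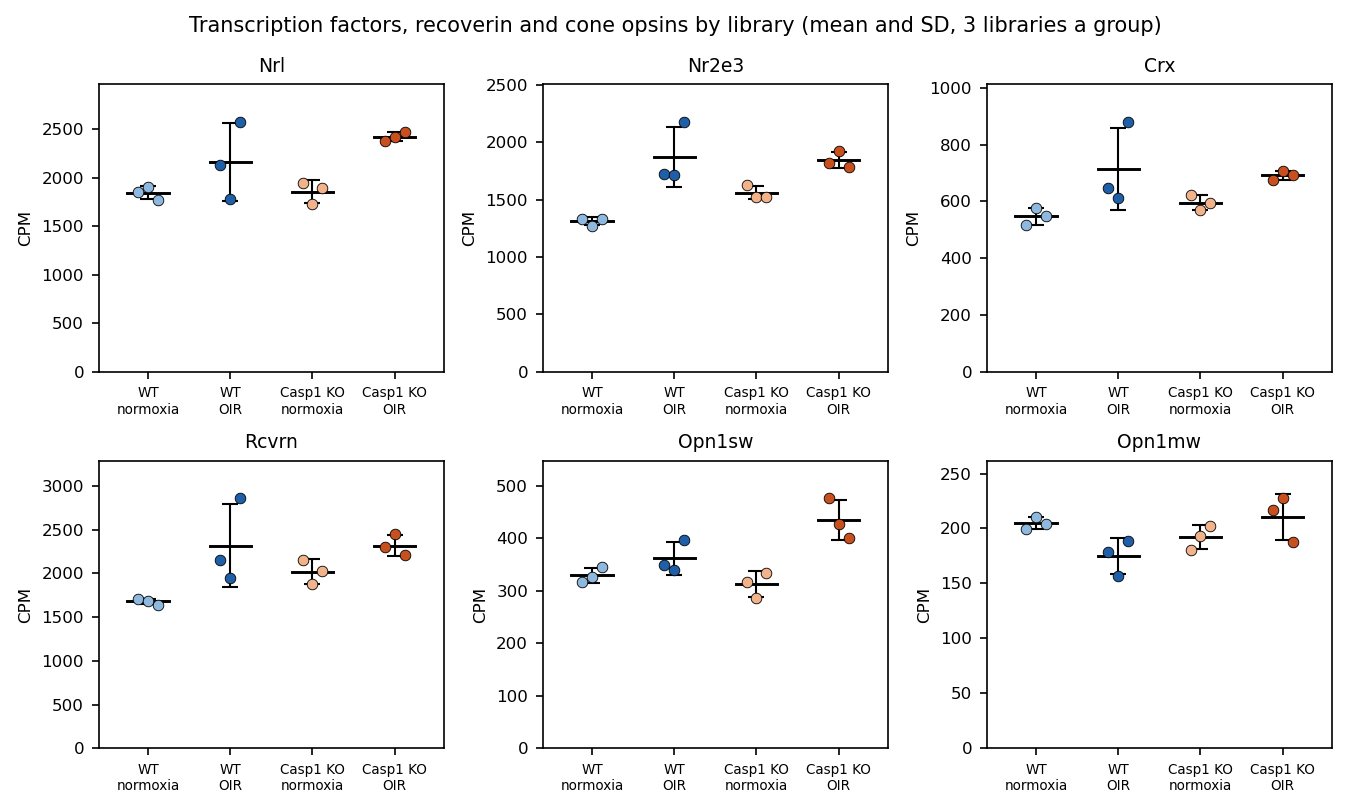
Level in CPM (vertical axis, from 0) of 3 transcription factors, recoverin and the cone opsins in each of the 12 libraries (points), with bars for the mean and SD of 3 libraries a group. Nr2e3, Crx and Rcvrn are higher in OIR than in normoxia in both genotypes, the third WT OIR library is the highest for these 3 and for Nrl, and the Opn1sw and Opn1mw levels overlap between some groups.

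Of the 4 transcription factors of photoreceptor identity, 2 were called higher with OIR in WT and 3 in Casp1 KO, and none lower. Of all genes tested, 1.58% were called higher in WT and 2.61% in Casp1 KO. With all 12 libraries in 1 fit, Nr2e3 and Crx stayed called in WT. In Casp1 KO Nrl stayed called there, but Nr2e3 (adjusted p = 0.141) and Crx (adjusted p = 0.352) did not. Nr2e3, the rod nuclear receptor that keeps cone genes off, stood at 1331, 1271 and 1331 CPM in WT normoxia, 1719, 1716 and 2176 in WT OIR, 1625, 1526 and 1524 in Casp1 KO normoxia and 1821, 1927 and 1786 in Casp1 KO OIR. OIR libraries were all above normoxia within each genotype. The fold change was 0.50 ± 0.11 in WT (adjusted p = 0.000385), 0.26 ± 0.062 in Casp1 KO (adjusted p = 0.00208) and 0.38 ± 0.07 over both (adjusted p = 5.76e-06). The WT value without the third OIR library was 0.38 ± 0.075 (adjusted p = 3.45e-05). An exon of Gm15507 overlaps Nr2e3 on the same strand in the annotation used here for positions, but Gm15507 is not a row of the count table. Whether the counting took any reads from Nr2e3 for this overlap could not be told, so reads of Nr2e3 are uncertain.

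Nrl, the leucine zipper factor that decides between rod and cone fate, stood at 1950.1, 1729 and 1894 CPM in Casp1 KO normoxia and 2383, 2414 and 2471 in Casp1 KO OIR, and rose there by 0.40 ± 0.06 (adjusted p = 9.57e-09). In WT it stood at 1857, 1908 and 1771 in normoxia and 2129, 1782 and 2574 in OIR, with 1 OIR library inside the normoxia range (0.22 ± 0.11, adjusted p = 0.361). The interaction for Nrl was 0.15 ± 0.12 (adjusted p = 0.772). Crx, the homeobox factor of rods and cones, stood at 518, 578 and 549 CPM in WT normoxia, 648, 613 and 879.7 in WT OIR, 623, 569 and 595 in Casp1 KO normoxia and 677, 707 and 692 in Casp1 KO OIR. It was just past the threshold in WT (0.37 ± 0.12, adjusted p = 0.0452) and in Casp1 KO (0.23 ± 0.074, adjusted p = 0.0447), and the call was lost in 8 of 13 alternative fits in WT and in 9 of 13 in Casp1 KO, there without any 1 of the 6 libraries. Without the third WT OIR library it gave 0.19 ± 0.09 in WT (adjusted p = 0.282) and 0.21 ± 0.07 over both genotypes (adjusted p = 0.06, against 0.00412 with it). Thrb was called in neither genotype, with 0.097 ± 0.13 in WT (adjusted p = 0.769) and -0.17 ± 0.095 in Casp1 KO (adjusted p = 0.45).

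Summed over their class, levels were close between groups, and no test was run on the sums. The 12 rod genes summed to 37567 ± 668 CPM in WT normoxia (mean ± SD, n = 3), 38132 ± 3470.4 in WT OIR, 38239 ± 792 in Casp1 KO normoxia and 38234 ± 512 in Casp1 KO OIR. The 11 cone genes summed to 2220.5, 2203 and 2164 in WT normoxia, 2337, 2257 and 2381 in WT OIR, 2220.3, 2203 and 2211 in Casp1 KO normoxia and 2428, 2534 and 2271 in Casp1 KO OIR. The cone sums were thus higher in every OIR library than in any normoxia library, with means of 2196 ± 28.9 and 2325 ± 62.9 in WT and 2211 ± 8.49 and 2411 ± 133 in Casp1 KO, while Arr3 within them fell. Sums of the 17 shared genes lay between 30529 and 34749 CPM and overlapped between normoxia and OIR in both genotypes. Reads of cone genes per 100 reads of rod genes were 6.01, 5.76 and 5.78 in WT normoxia and 6.06, 6.55 and 5.75 in WT OIR, which overlap. They were 5.7, 5.89 and 5.76 in Casp1 KO normoxia and 6.4, 6.53 and 5.98 in Casp1 KO OIR, which do not. The third WT OIR library had the highest rod sum of the 12, 41377 CPM, and the second the lowest, 34473.

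**Figure D4:**
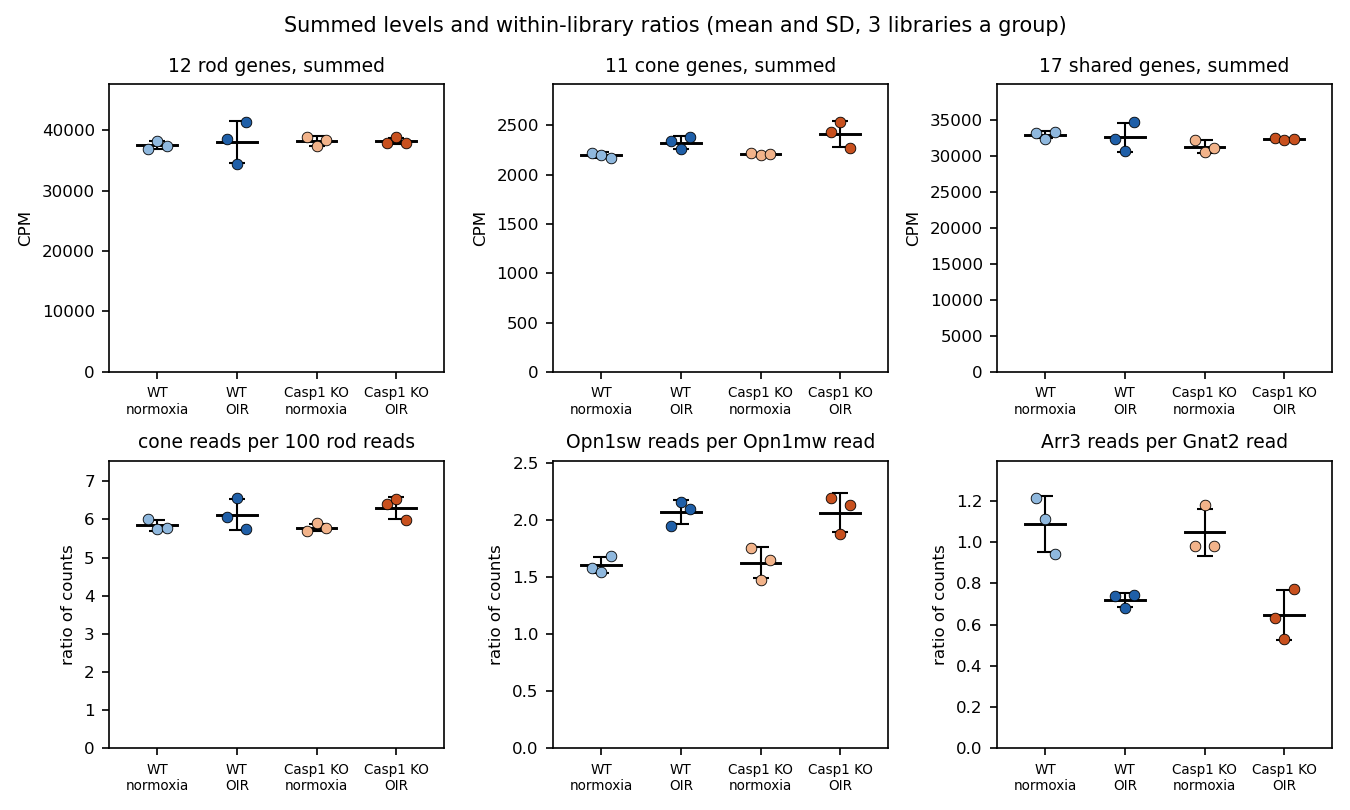
Summed CPM of the rod, cone and shared genes (top, vertical axis from 0) and ratios of reads within a library (bottom, from 0) in each of the 12 libraries (points), with bars for the mean and SD of 3 libraries a group. Summed levels are nearly level across groups, whereas Opn1sw per Opn1mw is higher and Arr3 per Gnat2 lower in all 6 OIR libraries.

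A retina is a mixture, and in these bulk samples fewer cells of a type and less RNA per cell cannot be told apart. Markers of other retinal cells moved with OIR too. Their counts stand beside 1.58% of all genes higher and 2.29% lower in WT, and 2.61% higher and 2.03% lower in Casp1 KO. Of 10 ganglion cell markers, 7 were lower in WT and 6 in Casp1 KO, and they summed to between 3079.7 and 3309.6 CPM in WT normoxia, 1476 and 1840.2 in WT OIR, 3379.9 and 3635 in Casp1 KO normoxia, and 1791 and 1868 in Casp1 KO OIR. Of 10 amacrine markers 6 were lower in WT and 1 in Casp1 KO, and of 6 horizontal cell markers 3 and 1. Of 10 Muller glia markers, 1 was higher and 3 lower in WT, and 8 were higher in Casp1 KO, where they summed to 2146 to 2281 CPM in normoxia and 3244 to 3441 in OIR. Of 10 retinal pigment epithelium markers 2 were higher in WT and 5 in Casp1 KO, and of 8 endothelial markers 1 was higher in WT. The part of these cells in the values above, which are shares of all reads, was not tested.

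Between the genotypes as labelled, against which the Casp1 reads went, in normoxia 5 of the 40 were higher and 2 lower in Casp1 KO, with 0.476% of all 22480 genes called higher and 0.56% lower. Beside Rpgrip1, Guca1a and Guca1b these were Rcvrn (0.27 ± 0.058, adjusted p = 0.000811), Gnb1 (0.22 ± 0.051, adjusted p = 0.00431), Nr2e3 (0.26 ± 0.061, adjusted p = 0.00488) and Pde6a (0.22 ± 0.06, adjusted p = 0.0331, lost in 5 of 13 alternative fits), all higher. Gnb1, the rod transducin beta subunit, stood at 3347, 3502 and 3438 CPM in WT and 4002, 3897 and 4032 in Casp1 KO without overlap. Pde6a, a catalytic subunit of the rod phosphodiesterase, stood at 1315, 1496 and 1426 in WT and 1691, 1572 and 1648 in Casp1 KO, also without overlap. No cone gene was called. Fitted with all 12 libraries, only Guca1a and Rpgrip1 of these 7 were called (adjusted p = 6.49e-11 for Guca1a and 3.08e-05 for Rpgrip1). Of the Muller glia markers 6 were lower in Casp1 KO in normoxia, and of the bipolar markers 4.

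Between the labelled genotypes in OIR, with the same limit on direction, 1 of the 40 was higher and 2 were lower in Casp1 KO, with 0.263% of all 22774 genes called higher and 0.312% lower. These were Gngt1, Rpgrip1 and Rp1 (-0.40 ± 0.1, adjusted p = 0.0208), and the call of Rp1 was lost in 7 of 13 alternative fits. Leaving out the third WT OIR library gave 10 calls, and edgeR after filterByExpr gave 0, with 9 at an unadjusted p under 0.05, where DESeq2 gave 3.

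In the interaction, taken as the response of the libraries labelled Casp1 KO less that of those labelled WT, 2 of the 40 were called with a positive difference and 2 with a negative one, with 0.604% of all 24484 genes called positive and 0.527% negative. Guca1a, Guca1b, Gucy2f and Rpgrip1 are all shared genes, and no rod or cone gene was called. Guca1b and Rpgrip1 passed in all 18 alternative fits. Leaving out the third WT OIR library gave 11, with Gngt1, Pdc, Rom1, Gnb5 and Prph2 added to the positive and Rp1 and Pde6a to the negative differences. Among the other reference genes the values were -0.27 ± 0.12 for Nr2e3, -0.17 ± 0.14 for Crx, 0.37 ± 0.17 for Opn1mw, 0.11 ± 0.17 for Gnat2 and -0.24 ± 0.17 for Pde6c, none of them called (the smallest adjusted p was 0.423, for Opn1mw).

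With both genotypes in 1 fit and genotype as a term, 8 of the 40 rose with OIR and 3 fell, with 2.32% of all 24484 genes called higher and 2.57% lower. Nr2e3, Nrl and Crx rose among the factors, as did Rcvrn (0.33 ± 0.068, adjusted p = 8.1e-05) and Rgs9 (0.31 ± 0.07, adjusted p = 0.000615) among the shutoff genes, Pde6g and Gnb3 in the cascade, and Opn1sw (0.30 ± 0.082, adjusted p = 0.00766). Those that fell were Arr3, Guca1a (-0.51 ± 0.081, adjusted p = 4.65e-08) and Sag (-0.21 ± 0.06, adjusted p = 0.0113). The call of Sag was lost in 6 of 18 alternative fits, DESeq2 and both stricter filters among them, with adjusted p up to 0.121, and that of Opn1sw in 2 of 18. For Guca1a this mean covers responses that differed between the genotypes.

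Another 38 photoreceptor genes were tested, such as genes of the synapse, the cilium, the interphotoreceptor matrix and transcription. Of these, 6 rose and 1 fell in WT, and 7 rose and 1 fell in Casp1 KO. Shares over all genes tested were 1.58% higher and 2.29% lower in WT, and 2.61% higher and 2.03% lower in Casp1 KO. Medians of the 38 were 0.22 in WT and 0.070 in Casp1 KO, beside 0.037 and -0.0020 over all genes. In WT the smallest p among those higher belonged to Rorb (0.59 ± 0.11, adjusted p = 2.23e-05), a nuclear receptor upstream of Nrl, then Frmpd1 (0.66 ± 0.14, adjusted p = 0.000411) and Prdm1 (0.64 ± 0.17, adjusted p = 0.00746). Rorb stood at 869, 932 and 940 CPM in WT normoxia and 1245, 1104 and 1799 in WT OIR, with the third OIR library the highest. Prdm1, which holds back the bipolar fate in young photoreceptors, was high only in the third WT OIR library, at 39.9, 53.4 and 135 CPM against 48.1, 57.9 and 38.9 in normoxia. In Casp1 KO those higher were led by Unc119 (0.32 ± 0.058, adjusted p = 5.55e-06), a carrier of transducin alpha, Aipl1 (0.35 ± 0.066, adjusted p = 1.1e-05), a chaperone of phosphodiesterase, and Tulp1 (0.32 ± 0.061, adjusted p = 1.49e-05). Slc24a2, a sodium, calcium and potassium exchanger that cones use, fell in both genotypes. The fold change was -0.76 ± 0.17 in WT (adjusted p = 0.000564) and -0.48 ± 0.15 in Casp1 KO (adjusted p = 0.03). Its levels went from 87.7, 70.3 and 86.1 to 51.9, 52.5 and 40.3 CPM in WT. In Casp1 KO they went from 73.8, 80.5 and 64.7 to 56.5, 47.5 and 51.8 CPM. The part of other cells in this fall was not tested.

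The 12 visual cycle genes return the bleached chromophore to its light-sensitive form. They gave 0 higher and 2 lower in WT and 7 higher and 0 lower in Casp1 KO. Of all genes tested, 1.58% were higher and 2.29% lower in WT, and 2.61% higher and 2.03% lower in Casp1 KO. In WT, Rlbp1 (-0.73 ± 0.13, adjusted p = 1.61e-06) and Lrat (-0.84 ± 0.24, adjusted p = 0.0198) fell. In Casp1 KO Rlbp1 rose (0.28 ± 0.086, adjusted p = 0.026) and Lrat had a value of 0.40 ± 0.20 (adjusted p = 0.349). The interaction called 3 of the 12 positive and 0 negative, beside 0.604% of all genes positive and 0.527% negative. It was 0.99 ± 0.15 for Rlbp1 (adjusted p = 1.43e-07) and 1.22 ± 0.31 for Lrat (adjusted p = 0.0154). Rlbp1 encodes the retinaldehyde carrier of Muller glia and pigment epithelium, and it is in the Muller glia list too. In Casp1 KO the genes that rose included Rbp3 (0.46 ± 0.061, adjusted p = 1.61e-11), the retinoid carrier that photoreceptors secrete, and Stra6 (1.51 ± 0.27, adjusted p = 3.51e-06), a retinol transporter. Rbp3 stood at 1574, 1603 and 1692 CPM in Casp1 KO normoxia and 2249, 2249.9 and 2146 in Casp1 KO OIR without overlap, and at 1461, 1536 and 1516 in WT normoxia and 1698, 1632 and 2396 in WT OIR (0.33 ± 0.11, adjusted p = 0.0529). Rgr, higher in Casp1 KO (0.60 ± 0.12, adjusted p = 5.7e-05), was counted both in this list and among the pigment epithelium markers. The pigment epithelium and Muller glia markers that moved with this list are those given above, and their part in it was not tested.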

How the data were processed

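Retinal RNA was prepared with a QuantSeq 3′ FWD kit, whose reads come from the end of transcripts. The authors aligned reads with STAR 2.7.5a and counted them per gene with HTSeq 0.6.1, per the submitters' processing notes (mm10). Which annotation and strand setting were used, and how reads with several matches were handled, is not given in the sources used here. The deposited values are whole, unnormalized counts per gene symbol, and 0 rows name no gene. Groups came from the sample labels.

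Counts were tested in R 4.3.3 with edgeR 4.0.16 (TMM scaling, genes with at least 1 count, quasi-likelihood test, Benjamini-Hochberg over all genes, threshold 0.05), each comparison of 2 groups on its own 6 libraries, and the interaction and the pooled effect on all 12. CPM values were scaled by TMM over all 12 libraries. Scripts were tested on simulated data. Alternatives were other scalings, filters, DESeq2 1.42.0, the replicate number as a block, 1 fit to all 12 libraries and each library left out in turn. Same-numbered libraries deviated together with correlations of -0.034 to 0.10, so numbers were not taken to pair them. Full statistics were given for called members (the 12 of smallest p where more) and 12 fixed reference genes, and for the 3 genes of smallest p each way in 2 other lists; other members are given by counts and selected values. A list gene that this rule names is not reported here. The members and lists were chosen with earlier results of these data known. Positions are from GENCODE vM21.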

Additional observations from a re-analysis of the deposited data

Results flagged for a closer look

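The response to OIR differed between the genotypes by the interaction test for 4 of the 40 genes. On the log2 scale, as the Casp1 KO response minus the WT response, the difference was 0.70 for Guca1b, 0.62 for Guca1a, -0.60 for Gucy2f and -1.23 for Rpgrip1. The value of Guca1a was not called without the second WT OIR library (adjusted p = 0.122) or with stricter filters on low counts, and that of Gucy2f was not called in 7 of 18 alternative fits, 6 of which left out 1 library. Groups of 3 libraries were not tested for single values that stand far from the others.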

How the results depend on the processing

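With 1 library left out at a time, the number of the 40 genes called ran from 5 to 14 for OIR in WT (8 with all), from 11 to 16 in Casp1 KO (17), from 1 to 10 between genotypes in OIR (3) and from 3 to 11 in the interaction (4). The highest count in WT, in OIR and in the interaction came without the third WT OIR library, and the lowest in Casp1 KO without the third normoxia library of that genotype. With all 12 libraries in 1 fit the count was 11 for OIR in WT and 7 in Casp1 KO, which turns the order of the genotypes, 2 between genotypes in normoxia and 5 between genotypes in OIR. Between genotypes in OIR edgeR called 0 with filterByExpr, where 9 had an unadjusted p under 0.05, and 0 with a minimum of 10 counts, where 8 had one, while DESeq2 called 3. The interaction called 2 with filterByExpr. With the replicate number as a block, counts were 7 for OIR in WT, 17 in Casp1 KO, 8 between genotypes in normoxia, 3 in OIR, 6 in the interaction and 11 over both genotypes, and of the named genes Crx in WT (adjusted p = 0.109) and Prdm1 in WT (adjusted p = 0.230) lost their call.

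Signs turned for values near 0 and for Prdm1. Gnat2 in WT became 0.00194 with DESeq2's size factors, 0.0124 with library size alone, 0.00222 in DESeq2, 0.00694 with the minimum of 10 counts, and -0.0302 to 0.0203 without 1 library. Arr3 in the interaction became -0.00676, -0.0172, -0.00585 and -0.0196 in the same order, -0.00287 with filterByExpr, -0.000548 with the replicate block, and -0.113 to 0.134 without 1 library. Values without 1 library ran in Casp1 KO from -0.0984 to 0.00601 for Gnat1, -0.0913 to 0.00951 for Cnga1 and -0.00122 to 0.192 for Gnat2, and in the interaction from -0.0435 to 0.140 for Gnat1, -0.00718 to 0.109 for Cnga1 and -0.264 to 0.0135 for Crx. Prdm1, called as higher in WT, ran from -0.0712, without the third WT OIR library, to 0.939. The cause of these shifts was not tested. Of the values of named genes under all alternatives, 1216 kept direction and side of the threshold, 97 lost the call, 11 gained it and 25 turned.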
